A study of Mus musculus with 12 samples.

Results

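Shox2, Sln, Isl1, Nr2f2 and Angpt1 are 5 genes that mark the atrium or the sinus venosus, the venous inflow of the embryonic heart. They were taken by name from the gene annotation of the array, which measured 19057 genes with 45281 probes, and 13 of those probes belonged to them. Each gene was read from 1 probe, the brightest of its probes on average. The arrays held RNA of 2 tissues dissected from mouse embryos, the atrioventricular canal (AVC) and the primary ventricle (labelled LV), at embryonic day 10 or 9 (E10, E9), in 4 groups of 3: AVC E10, AVC E9, LV E10 and LV E9. The sources used here do not give strain, sex, genotype or litter, and they name no agent. Nothing states that the 3 samples of a group came from separate embryos or pools, so a p-value weighs a difference against a spread between samples that can be technical. The dissected pieces were whole tissue, with myocardium, endocardium and blood together.

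The AVC is the narrow segment between the atrium and the ventricle, where the cushions form that later become the mitral and tricuspid valves. Its upstream neighbours are the atria and the sinus venosus, and myocardium of the sinus venosus gives rise to the sinoatrial node, the pacemaker of the heart. Shox2 is a homeobox factor of the sinus venosus that holds back the working myocardial programme in pacemaker cells. Isl1 is a LIM homeobox factor of second heart field progenitors and later of the sinus node. Nr2f2, also called COUP-TFII, is an orphan nuclear receptor that sets atrial identity. Sln encodes sarcolipin, a small membrane peptide that inhibits the calcium pump of the sarcoplasmic reticulum and is found in atrial rather than ventricular muscle. Angpt1 encodes angiopoietin 1, the ligand that activates the receptor Tie2 (Tek) on endothelial and endocardial cells.

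Shox2, Sln, Isl1 and Nr2f2 had higher mean intensities in the AVC than in the LV at both ages, and Angpt1 did not. The intensities had been background subtracted before deposit, so values near or below 0 occur. A probe was taken as above background on an array where it exceeded the size of that array's most negative value, a limit that lay between 22.4 and 29.6. Between 36.7% and 41.0% of probes passed it. Of the AVC markers, Tbx2 and Bmp2 were higher in the AVC than in the LV at both ages by limma (adjusted p 0.00617 to 0.0324), Tbx3 at E10, and Msx2 was above background on 0 arrays. Tbx2 was above background on 2 of 6 LV arrays and Bmp2 on 0, so the folds are bounds, at least 9.10-fold at E9 and 7.24-fold at E10 for Tbx2 and at least 1.54-fold at E10 for Bmp2. At E9 the Bmp2 ratio was 1.11-fold. It is not a strict bound, since 2 of 3 AVC E9 arrays were above background and the other entered as read. Of 6 ventricular markers (Irx4, Hey2, Myl2, Myl3, Hand1, Nppa), Nppa was lower in the AVC at both ages (log2 difference -1.73 at E9, limma adjusted p = 0.0144, and -1.35 at E10, adjusted p = 0.0223) and the other 5 did not pass. The study counts Nppa among genes of the cardiac chambers, so its lower value is not read here as less ventricle. AVC E10 replicate 1 was closest to AVC E9 replicate 2 (r = 0.979 across genes, which are not independent replicates) and LV E10 replicate 1 was closest to LV E9 replicate 2 (r = 0.969), while the other 4 E10 arrays were closest to an array of their own group. For Shox2, Sln, Isl1 and Nr2f2 the comparison of AVC with LV at E10 is given with and without each of these replicate 1 arrays. For the genes of the lists it is given with all arrays.

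Shox2 (probe ILMN_2647121) had intensities of 55.7, 549 and 553 on the AVC E10 arrays and 77.2, 59.3 and 87.2 on the AVC E9 arrays, against 6.36, 16.6 and 2.85 in LV E10 and 8.34, 23.3 and 6.52 in LV E9. All 6 AVC arrays were above background and none of the 6 LV arrays was. Within AVC E10, replicate 1 lay at the E9 level and the other 2 arrays lay far above it, so the group mean of 386 ± 286 (SD, n = 3) describes none of the 3 arrays. AVC E9 averaged 74.6 ± 14.1 (SD, n = 3). At E10 the difference between AVC and LV was 5.26 ± 0.996 (log2, SE) and passed the test (limma, adjusted p = 0.0375). At E9 it was 2.77 ± 0.996 and did not (adjusted p = 0.302). Because the LV lay below background, the fold can be given only as a bound: at least 10.3-fold higher in the AVC at E10 and at least 2.75-fold at E9. The bound sets the mean log2 value of the brighter group against that of the dimmer one, with each array of the dimmer group that lay below its limit raised to the lowest signal above it. The log2 differences of the fit run instead against values set to at least 1, so they overstate what was measured wherever a group lay below background. Without AVC E10 replicate 1 the bound for Shox2 at E10 was at least 22.03-fold, and without LV E10 replicate 1 it was at least 11.2-fold.

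A second Shox2 probe gave the same split of the AVC E10 arrays, with -0.448 on replicate 1, 169 on replicate 2 and 156 on replicate 3. It was not above background on any AVC E9 or LV array. The remaining Shox2 probe stayed between -1.97 and 25.1 on all 12 arrays and barely passed the limit on 2 of them, AVC E10 replicates 1 and 3, so it did not show the split.

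Sln (probe ILMN_2918875) had intensities of 14.3, 541 and 313 on the AVC E10 arrays and 16.2, 60.7 and 9.12 on the AVC E9 arrays. The LV arrays read 8.97, 1.05 and -4.48 at E10 and -3.01, -11.3 and -5.82 at E9. Sarcolipin RNA was thus above background on 3 of 12 arrays, AVC E10 replicates 2 and 3 and AVC E9 replicate 2. The difference between AVC and LV was 5.99 ± 1.44 at E10 (log2, SE; limma, adjusted p = 0.0825) and 4.38 ± 1.44 at E9 (adjusted p = 0.256), and neither passed. Over all 3 AVC E10 arrays, of which 2 were above background, the ratio was 5.37-fold. It is not a strict bound, since the value of AVC E10 replicate 1 entered as read though below background. Without that array the bound was at least 16.5-fold. At E9 no fold can be given. Sln passed at E10 without AVC E10 replicate 1 (7.60, limma adjusted p = 0.0222) and without LV E10 replicate 1 (7.03, adjusted p = 0.0491), in both cases against LV values below background. The other Sln probe was above background on 0 arrays.

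Isl1 (probe ILMN_2727472, the single probe of this gene) had intensities of 51.2, 153 and 265 on the AVC E10 arrays and 246, 159 and 304 on the AVC E9 arrays. In the LV it read 54.8, 0.208 and 7.26 at E10 and 43.9, 43.6 and 45.3 at E9. Isl1 was the one member of the 4 with a higher AVC mean at E9, 237 ± 73.0, than at E10, 157 ± 107 (SD, n = 3 each), and the 2 groups overlapped. At E9 all AVC arrays lay above all LV arrays, 5.16-fold on the log2 means. At E10 AVC replicate 1 and LV replicate 1 crossed, at 51.2 and 54.8, and LV replicate 1 was the single LV E10 array above background. The differences were 2.37 ± 1.26 at E9 (log2, SE; limma, adjusted p = 0.572) and 4.12 ± 1.26 at E10 (adjusted p = 0.160). This SE pools the spread of all 4 groups. With only the groups compared in the fit it was 0.26 at E9 (limma, adjusted p = 0.0696) and 1.72 at E10 (adjusted p = 0.484), and neither passed. Since 2 of 3 LV E10 arrays lay below background, the E10 fold is a bound, at least 4.16-fold. Without LV E10 replicate 1 the fitted difference of Isl1 was 5.57 (adjusted p = 0.0219), but against 2 arrays below background, and the bound was at least 5.56-fold. Without AVC E10 replicate 1 the E10 difference was 4.78 and did not pass (limma, adjusted p = 0.170), with a bound of at least 6.58-fold.

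Isl1 is also made by pharyngeal endoderm, so the endodermal markers are given beside it. The summed intensity of the 6 gut endoderm markers was 67.8 to 136 in AVC E10, 229 to 780 in AVC E9, 14.9 to 361 in LV E10 and 85.0 to 411 in LV E9. Its LV E10 maximum was on replicate 1, the array with Isl1 above background. That sum came from Cdh1 and Cldn6, which were above background on 10 arrays each. Epcam, Foxa1, Foxa2 and Shh were above background on 0 of 12 arrays. The part of endoderm in the Isl1 values was not tested.

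Nr2f2 (probe ILMN_3163196) had intensities of 69.4, 157 and 123 on the AVC E10 arrays and 76.5, 49.9 and 73.4 on the AVC E9 arrays. The LV arrays read 49.7, 22.7 and 24.4 at E10 and 4.21, 13.1 and 6.60 at E9. The AVC arrays lay above the LV arrays of the same age without overlap. LV E9 was below background on all 3 arrays. At E9 the difference of 3.20 ± 0.49 (log2, SE) passed the test (limma, adjusted p = 0.0281), with a bound of at least 2.44-fold. At E10 it was 1.87 ± 0.49 (adjusted p = 0.110), which is 3.65-fold with all 6 arrays above background. Without AVC E10 replicate 1 the E10 difference was 2.21 (limma, adjusted p = 0.0981), which is 4.61-fold. Without LV E10 replicate 1 the E10 fold was 4.69. A second Nr2f2 probe passed the limit on 3 arrays, all from the AVC, with 5.50, 28.0 and 33.2 in AVC E10, 12.1, 13.4 and 25.7 in AVC E9, and -8.90 to 3.78 in the LV. The other 2 Nr2f2 probes were above background on 0 arrays.

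Angpt1 (probe ILMN_1226520) had intensities of 142, 153 and 163 on the AVC E10 arrays and 176, 128 and 180 on the AVC E9 arrays, against 152, 158 and 203 in LV E10 and 264, 263 and 191 in LV E9. It was above background on all 12 arrays and varied least of the 5. LV E9 had the highest mean, 239 ± 41.9, and AVC E10 the lowest, 153 ± 10.7 (SD, n = 3 each). At E9 the AVC arrays all lay below the LV arrays, with a log2 difference of -0.57 ± 0.18 (SE; limma, adjusted p = 0.237). At E10 the difference was -0.15 ± 0.18 (adjusted p = 0.831). The other 2 Angpt1 probes were above background on 0 arrays.

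**Figure D1:**
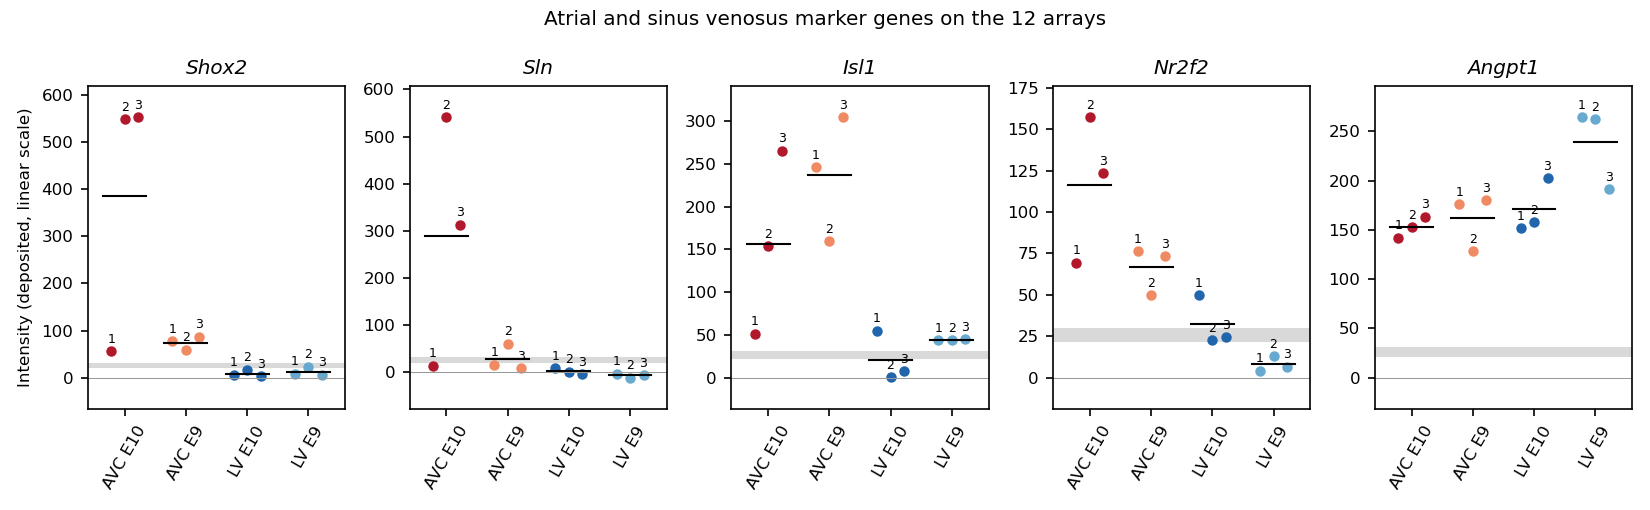
Intensity of each gene on every array (points, numbered by replicate, on a linear scale) in AVC E10, AVC E9, LV E10 and LV E9, with group means as bars and the range of the 12 background limits in grey. AVC E10 replicate 1 lies at 55.7 for Shox2 and 14.3 for Sln, far below replicates 2 and 3, while Angpt1 is alike on the 3 arrays.

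Counted together, 1 of 5 genes passed as higher in the AVC at E9 (Nr2f2), where 0.855% of all genes passed in that direction and 1.02% in either. At E10 1 of 5 passed (Shox2), where 2.06% of all genes passed as higher and 2.3% in either direction. The median log2 difference of the 5 genes was 2.77 at E9, where the median of all genes was 0, and 4.12 at E10, where it was 0.07. These medians were the values of Shox2 at E9 and Isl1 at E10, from the fit with values under 1 set to 1. Shox2 was below background on all 3 LV E9 arrays, and Isl1 was above it on 1 of 3 LV E10 arrays. With values under 32 set to 32, Shox2 was 1.20 at E9 and Isl1 was 1.74 at E10. All AVC arrays lay above all LV arrays for 4 of 5 genes at E9 (13% of all genes) and for 3 of 5 at E10 (14.4% of all genes). For Angpt1 at E9 they all lay below (6.56% of all genes). Sln counts as higher at both ages, though all its LV arrays and some of its AVC arrays lay below background. The 5 genes were chosen with earlier results of these data known, so the shares of all genes are given as a description. By the methods' t-test at the fold and p thresholds of the study, with no adjustment, 4 of 5 genes passed at E9 (Shox2, Sln, Isl1 and Nr2f2), where 0.95% of all genes did, and 0 of 5 at E10, where 0.882% did. No background filter was applied here, and of the 4 Isl1 alone was above background in LV E9. Shox2, Sln and Nr2f2 passed on folds against unmeasured LV values, and Sln was above background on 1 of 3 AVC E9 arrays. After Benjamini-Hochberg adjustment that test called 0 of the 5 at either age. In these whole tissues, fewer cells of a type and less RNA per cell cannot be told apart.

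**Figure D2:**
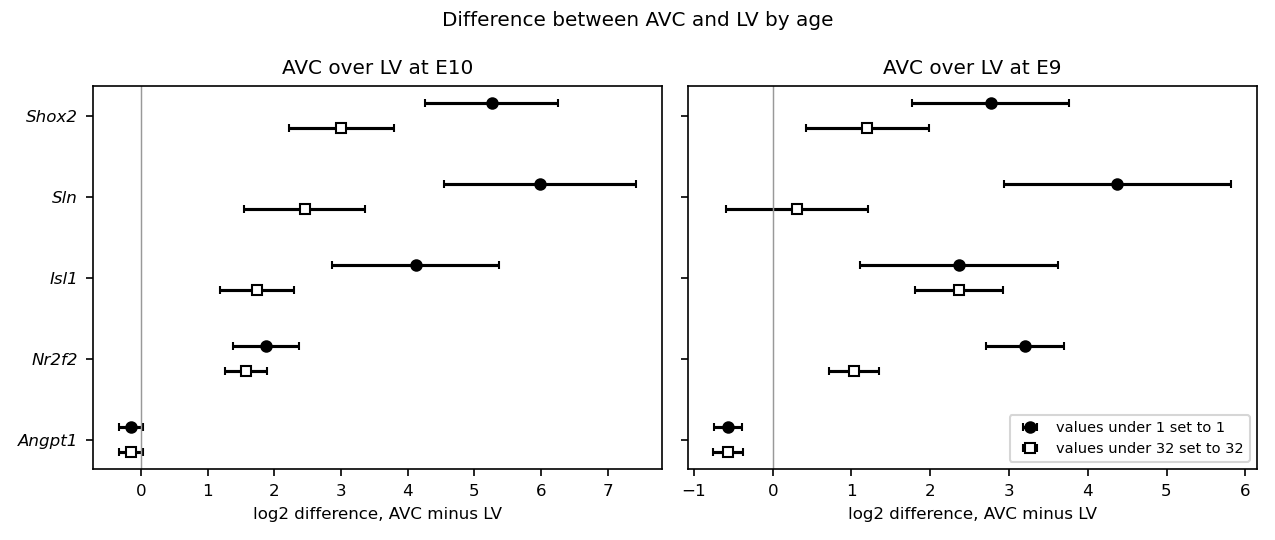
Log2 difference between AVC and LV with its SE for the 5 genes at E10 and E9, from 3 arrays a group, with intensities under 1 set to 1 (filled) or under 32 set to 32 (open). With the higher floor the E10 difference of Shox2 is 3.004 and the E9 difference of Nr2f2 is 1.03, Isl1 at E10 is 1.74 and Sln at E10 2.46, while Isl1 at E9 and Angpt1 hardly move.

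The size of these log2 differences depended on how values below background were treated, since the LV values of Shox2 and Sln, those of Nr2f2 at E9 and of Isl1 on 2 of 3 LV E10 arrays were below background and carry no order. With every value under 32 set to 32, Shox2 was 3.004 ± 0.78 higher in the AVC at E10 (limma, adjusted p = 0.131), and Nr2f2 was 1.03 ± 0.32 higher at E9 (adjusted p = 0.300), so both calls were lost. Sln came to 2.46 ± 0.91 at E10 (adjusted p = 0.311) and 0.31 ± 0.91 at E9 (adjusted p = 1). Isl1 at E10 came to 1.74 ± 0.56 (adjusted p = 0.226). Isl1 at E9, where all 6 arrays were above background, stayed at 2.37 with a smaller SE of 0.56 (adjusted p = 0.150).

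Both calls lay near their threshold. The Shox2 call at E10 was lost without any 1 of 10 arrays, among them AVC E10 replicate 3 (4.71, limma adjusted p = 0.137), and kept without AVC E10 replicate 1 (6.36, adjusted p = 0.0130) and without LV E9 replicate 2 (5.26, adjusted p = 0.0489). In those 10 fits its difference was 4.64 to 5.92 and its adjusted p 0.0522 to 0.137. The Nr2f2 call at E9 was lost without any 1 of 6 arrays, with differences of 2.82 to 3.39 and adjusted p between 0.0584 and 0.104.

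For 3 of the 4 genes with higher AVC means, the RefSeq table for GRCm38.p6 holds the start of the gene. The 250 bases upstream of it are shown because the RNAs of Shox2, Isl1 and Nr2f2 were above background on all 6 AVC arrays. In these windows 6 short motifs were searched on both strands. They were AGGTGTG of T-box factors, AGATAA of GATA factors, TAATTA of homeodomain factors, AGGTCA as the single nuclear receptor repeat, TATAAA as the TATA box and CCAAT as the CCAAT box. Capitals mark the matches, with CCAAT on the opposite strand written ATTGG. Each window is given 5′ to 3′ on the strand of its gene, which is the minus strand in all 3 cases. Shox2 is at chr3:66981772-66982021, Isl1 at chr13:116309689-116309938 and Nr2f2 at chr7:70366747-70366996.
Shox2: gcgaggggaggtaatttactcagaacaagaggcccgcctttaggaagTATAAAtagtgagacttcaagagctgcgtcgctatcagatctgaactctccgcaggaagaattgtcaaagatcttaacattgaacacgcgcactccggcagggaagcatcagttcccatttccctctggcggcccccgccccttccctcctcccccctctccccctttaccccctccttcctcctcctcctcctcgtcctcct
Isl1: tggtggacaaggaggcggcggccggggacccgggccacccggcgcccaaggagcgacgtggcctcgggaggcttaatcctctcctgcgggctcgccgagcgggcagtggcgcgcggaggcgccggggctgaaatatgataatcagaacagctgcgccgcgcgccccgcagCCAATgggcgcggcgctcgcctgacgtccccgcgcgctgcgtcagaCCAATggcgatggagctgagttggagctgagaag
Nr2f2: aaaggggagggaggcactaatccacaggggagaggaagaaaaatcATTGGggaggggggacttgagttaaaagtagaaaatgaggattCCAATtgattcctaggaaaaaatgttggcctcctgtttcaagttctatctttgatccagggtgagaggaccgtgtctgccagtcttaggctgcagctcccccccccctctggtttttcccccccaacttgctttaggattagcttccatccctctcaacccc
The Shox2 window holds TATAAA 203 to 198 bases before the start, which 12.4% of 32851 promoter windows of this length hold somewhere. The Isl1 window holds CCAAT at 80 to 76 and at 34 to 30 bases before the start, and the Nr2f2 window holds it at 205 to 201 (opposite strand) and at 162 to 158. CCAAT is in 33.8% of all windows. The T-box, GATA, homeodomain and nuclear receptor letters, held by 5.10%, 9.99%, 4.84% and 14.0% of windows, are not in these 3 windows. The GC content is 55.6% for Shox2, 71.2% for Isl1 and 50% for Nr2f2, and the median window has 52.4%. These matches are a description of the letters and not of bound sites.

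Within the AVC, E10 was set against E9. The log2 differences were 1.80 ± 0.996 for Shox2, 2.69 ± 1.44 for Sln, -0.84 ± 1.26 for Isl1, 0.75 ± 0.49 for Nr2f2 and -0.07 ± 0.18 for Angpt1 (SE). By limma 0 of 5 genes passed, with adjusted p between 0.526 and 1, where 0.551% of all genes passed, and 0 had an unadjusted p under 0.05, where 12.5% of all genes did. The methods' t-test also called 0, at the study's thresholds (0.855% of all genes) and after adjustment. Their median was 0.75 and that of all genes 0. The groups overlapped for all 5 genes, and AVC E10 replicate 1 lay within or below the AVC E9 range for Shox2, Sln, Isl1 and Nr2f2.

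Without AVC E10 replicate 1 the age difference in the AVC was 2.90 ± 0.77 for Shox2 (limma, adjusted p = 0.112) and 4.31 ± 1.10 for Sln (adjusted p = 0.0992), and 0 of 5 passed. With LV E10 replicate 1 left out as well, a setting chosen after the data were seen, Sln passed as higher at E10 (4.31, adjusted p = 0.0280) and Shox2 did not (2.90, adjusted p = 0.114). Sln was below background on 2 of 3 AVC E9 arrays, and with values under 32 set to 32 its difference over all arrays was 2.15 (adjusted p = 0.467).

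In the LV, Nr2f2 had higher values at E10 on every array, 22.7 to 49.7, against 4.21 to 13.1 at E9 (9.33% of all genes did so). Its log2 difference of 2.08 ± 0.49 did not pass (limma, adjusted p = 0.0680), and the bound was at least 1.13-fold, since LV E9 was below background and 2 of the LV E10 arrays were close to the limit. Isl1 had a difference of -2.59 ± 1.26 (adjusted p = 0.310), and without LV E10 replicate 1 it was -4.04 (adjusted p = 0.0287), against 2 arrays below background. The bound was then at least 1.93-fold lower in LV E10 than in LV E9, and with values under 32 set to 32 the difference over all arrays was -0.21 (adjusted p = 1). Angpt1 had a difference of -0.48 ± 0.18 (adjusted p = 0.189). Shox2 and Sln were below background on all 6 LV arrays, so their differences have no meaning as folds. In all, 0 of 5 genes passed by limma, where 2.37% of all genes did, and 2 had an unadjusted p under 0.05 (Nr2f2 and Angpt1), where 19.6% did. The methods' t-test called 0, at the study's thresholds (1.01% of all genes) and after adjustment.

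Whether the difference between AVC and LV itself changed with age was tested as the interaction. It was 2.49 ± 1.41 for Shox2, 1.61 ± 2.04 for Sln, 1.75 ± 1.78 for Isl1, -1.33 ± 0.70 for Nr2f2 and 0.41 ± 0.26 for Angpt1 (log2, SE). With values under 32 set to 32 the sign turned for Isl1 (-0.63) and Nr2f2 (0.54). By limma 0 of 5 passed (adjusted p 0.937 to 0.974), where 0.0315% of all genes did, and 0 had an unadjusted p under 0.05, where 4.71% did. A call at one age and not at the other, as for Shox2 and Nr2f2, is thus not shown to be a difference between the ages.

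AVC E10 replicate 1 read 4 times or more below the lower of replicates 2 and 3 for 2 of the 5 genes. Shox2 was 9.84-fold lower there and Sln at least 13.6-fold lower, while Isl1 was 2.996-fold, Nr2f2 1.78-fold and Angpt1 1.08-fold lower. Over all genes above background on both other arrays, 131 of 9637 (1.36%) were that low on AVC E10 replicate 1. The share was 1.37% on LV E10 replicate 1, 0.899% on AVC E9 replicate 2 and 0.0212% to 0.244% on the other 9 arrays, each set against the other 2 arrays of its group. AVC E10 replicate 1 was known beforehand to differ from replicates 2 and 3, so these shares describe that array and test nothing.

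Genes of the same territory were read on the same 3 arrays. The summed intensity of 7 other sinus venosus and pacemaker genes was 1136 on AVC E10 replicate 1, against 3399 and 3427 on replicates 2 and 3. Vsnl1 and Bmp4 made up 1057 of it on replicate 1, against 3272 and 3115. The other 5 genes summed to 78.7, against 127 and 313, and of these Hcn4, Smoc2 and Cpne5 were above background on 0 arrays. Tbx18, a T-box factor of the sinus venosus and the epicardium, read 66.1, against 47.4 and 239, so it was not lowest on replicate 1. Cacna1g read 12.5 on replicate 1, below background, against 50.7 and 51.7. Vsnl1, a calcium sensor of the sinus venosus, read 412 on replicate 1 against 1431 and 1602, and Bmp4, a growth factor gene, 645 against 1841 and 1513. The sum of 11 atrial genes was 55006 on replicate 1, against 62539 and 52883. Myl7 and Myl4, atrial myosin light chains, made up most of it, and the other 9 summed to 4648, against 5003 and 4484. Within that list Pam, an enzyme that amidates peptides, read 156 against 552 and 596, and Kcna5, an atrial potassium channel, read 228 against 78.8 and 119, the other way. Bmp4, Tbx18, Cacna1g, Pam and Kcna5 were picked here after their values were seen.

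**Figure D3:**
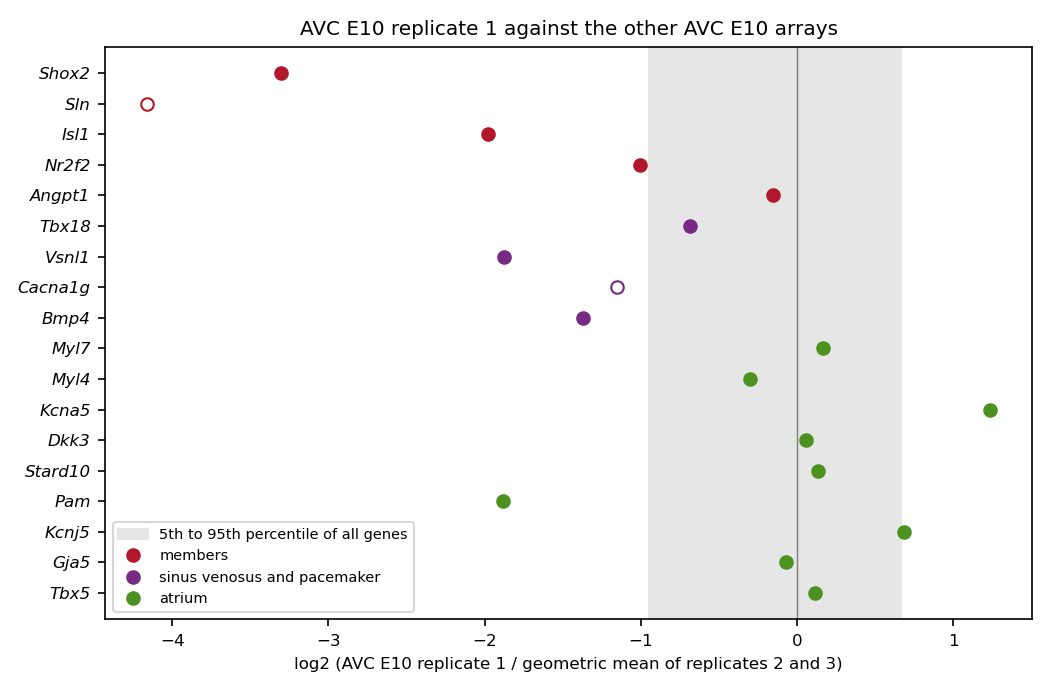
Log2 ratio of AVC E10 replicate 1 to the geometric mean of replicates 2 and 3 for the 5 genes and for other sinus venosus and atrial genes above background on both, with open circles where replicate 1 was at its background limit (so the ratio is an upper bound) and the 5th to 95th percentile of 9637 genes (-0.95 to 0.66) in grey. Shox2 (-3.30) and Sln (-4.16) lie farthest left, Angpt1 (-0.15) and most atrial genes lie in the grey range.

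Marker lists of other cells were compared over the same arrays. The sum of 5 neural and neural crest markers was 28.1 on AVC E10 replicate 1, against 91.6 and 131 on replicates 2 and 3, and 20.1 to 36.2 in AVC E9. Sox10, a neural crest factor, was above background on replicates 2 and 3 alone of 12 arrays (41.4 and 47.7), and Sox2, Pax6 and Neurog1 were above background on 0 arrays. Tfap2b did not follow Sox10. It was above background on AVC E10 replicate 3 (59.7) and LV E10 replicate 1 (45.5), and not on AVC E10 replicate 2 (26.3). Sox10 and Tfap2b were picked after their values were seen. The 6 gut endoderm markers also summed lowest on AVC E10 replicate 1, 67.8 against 127 and 136. Of the posterior second heart field genes, Osr1 read 29.5 there, against 87.4 and 90.9. Fgf10 of that list went the other way, with 71.7 against 21.1 and 34.1. Osr1 and Fgf10 were picked in the same manner. The 5 epicardial markers summed to 5132, 5366 and 5450 in AVC E10, so replicate 1 was alike there, and to 772 to 1139 in AVC E9. The 4 AVC markers summed to 1284 on replicate 1, against 763 and 1035. What set AVC E10 replicate 1 apart for Shox2 and Sln was not tested, and the labels name no batch.

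Other atrial and venous genes were set beside the 5. Of 11 measured atrial genes, 2 were higher in the AVC at E9 (0.855% of all genes) and 1 at E10 (2.06% of all genes), and 9 and 10 did not pass, with median log2 differences of 0.41 and 0.44. Stard10, a lipid transfer protein, was higher at both ages (2.03 at E9, limma adjusted p = 0.00486, and 2.43 at E10, adjusted p = 0.00127). Kcna5 was higher at E9 (adjusted p = 0.0386), by at least 7.79-fold, since it was above background on 0 of 6 LV arrays. Some atrial genes went the other way without passing. Dkk3 read 1878, 1487 and 1654 in AVC E9, against 3359, 2332 and 2554 in LV E9 (-0.71, limma adjusted p = 0.0592). Gja5 averaged 748 in AVC E10 against 1705 in LV E10 (-0.89, limma adjusted p = 0.582). Dkk3 and Gja5 were picked after their values were seen. Of 7 measured sinus venosus and pacemaker genes, 4 were above background on any array and 1 passed at each age, Vsnl1 (3.71 at E9, adjusted p = 0.0218, and 4.90 at E10, adjusted p = 0.00548, with 1 LV E10 array below background). The medians of that list were 0.92 and 0.97. Hcn4, the pacemaker channel that defines the sinus node, was above background on 0 arrays, as were Smoc2 and Cpne5. Absent RNA and a probe that does not respond cannot be told apart in such genes, here or in the other lists. Kdr, an endothelial marker, was also above background on 0 arrays, while Pecam1, Cdh5, Tek and Tie1 were on all 12.

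The posterior second heart field supplies the venous pole with cells, and its list was read for that reason. Of its 10 measured genes, 0 passed at E9 by limma, with 3 at an unadjusted p under 0.05, where 11.5% of all genes were. At E10 1 passed, where 2.3% of all genes did in either direction. It was Wnt2, a growth factor gene (2.76, limma adjusted p = 0.0315), with 643, 1250 and 1504 in AVC E10. The summed intensity of that list was 3018 to 4032 in AVC E10, 5186 to 6013 in AVC E9, 1855 to 2801 in LV E10 and 2498 to 3186 in LV E9.

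Genes that work with each member were taken from lists. Of 7 genes of the Shox2 pathway, Nppa was lower in the AVC at both ages, and Tbx3, a T-box repressor of the conduction system, was higher at E10 (3.22, limma adjusted p = 0.0304). The other 6 did not pass at E9 and the other 5 did not at E10, where 1.02% and 2.3% of all genes passed in either direction. Of 8 LIM homeobox partners of Isl1, among them Ldb1, Gata4 and Nkx2-5, 0 passed at either age by limma, with 3 at an unadjusted p under 0.05 at each age (11.5% of all genes at E9 and 13.9% at E10).

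For sarcolipin, the list held the calcium pumps and calcium store proteins. Of 8 measured, 0 passed at E9 by limma (3 at an unadjusted p under 0.05, against 11.5% of all genes) and 1 at E10 (2.3% of all genes in either direction). That gene was Atp2a1, a calcium pump that sarcolipin binds, with intensities of 321, 121 and 166 in AVC E10, against 47.1, 10.5 and 25.1 in LV E10 (3.01, adjusted p = 0.0483; at least 6.25-fold, with 1 LV array below background). At E9 it read 1227, 696 and 1162 in the AVC, against 182, 74.4 and 176 in the LV (2.90, adjusted p = 0.0792). AVC arrays thus lay above LV arrays at both ages, and unlike Sln the replicate 1 value in AVC E10 was the highest of its group. Casq2 of the same list went the way of Sln there, with 28.7 on AVC E10 replicate 1 against 151 and 153. It was picked after its values were seen.

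For Nr2f2, 9 genes of COUP-TF and retinoic acid biology were measured. Crabp2, which carries retinoic acid to its receptors, read 205, 264 and 218 in AVC E9, against 51.0, 54.5 and 59.1 in LV E9 (2.06, limma adjusted p = 0.0143). In AVC E10 it read 66.8, 56.6 and 63.7, lower than in AVC E9 (-1.87, adjusted p = 0.0299). The other 8 did not pass at E9, where 1.02% of all genes passed in either direction. At E10 0 of 9 passed by limma, with 1 at an unadjusted p under 0.05 (13.9% of all genes).

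For Angpt1, 8 genes of the angiopoietin and Tie pathway were measured. Ptprb, a phosphatase that acts on the Tie2 receptor, read 746, 735 and 697 in AVC E10, against 159, 89.2 and 99.998 in LV E10 (2.69, limma adjusted p = 0.00336). The antagonist Angpt2 had log2 differences of 1.11 at E9 (adjusted p = 0.0631) and 1.005 at E10 (adjusted p = 0.0598), and the receptor Tek 0.37 and 0.56 (adjusted p = 0.281 and 0.0727). At E9 0 of 8 passed by limma, with 3 at an unadjusted p under 0.05 (11.5% of all genes). The ligand Angpt1 was thus not higher in the AVC, at either age, while Ptprb was at E10.

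The genes whose values ran most like each member were found by Pearson correlation of log2 intensity over the 12 arrays, with values under 29.6 set to 29.6, among 9955 genes above that limit on at least 4 arrays. For Shox2 they were Actg2 (r = 0.970), a smooth muscle actin, Fzd10os (0.970) and Rarg (0.960), a retinoic acid receptor. For Sln, which was above that limit on 3 arrays, they were Cyp1b1 (0.995), a cytochrome P450, Cntln (0.979) and Pcdh17 (0.976), a protocadherin. For Isl1 they were Vsnl1 (0.924), Rxrg (0.922), a retinoid X receptor, and Cpn1 (0.915). For Nr2f2 they were Unc5c (0.984), a netrin receptor, Ltbp4 (0.975), a TGF-beta binding protein, and Tmtc2 (0.968). For Angpt1 they were Cdc42ep1 (0.947), Poldip2 (0.915) and Cenpa (0.901), a centromeric histone. The arrays share 4 groups and their order of samples, so any pair of genes with one group pattern has a high r, and it is given as a description. For Shox2 and Sln the split within AVC E10 enters r as well. Actg2 read 66.3, 658 and 544 on AVC E10 replicates 1, 2 and 3, and Cyp1b1 read 29.7, 296 and 239. Sln was set to 29.6 on all but 3 arrays, so its r rests mostly on those 3.

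**Figure D4:**
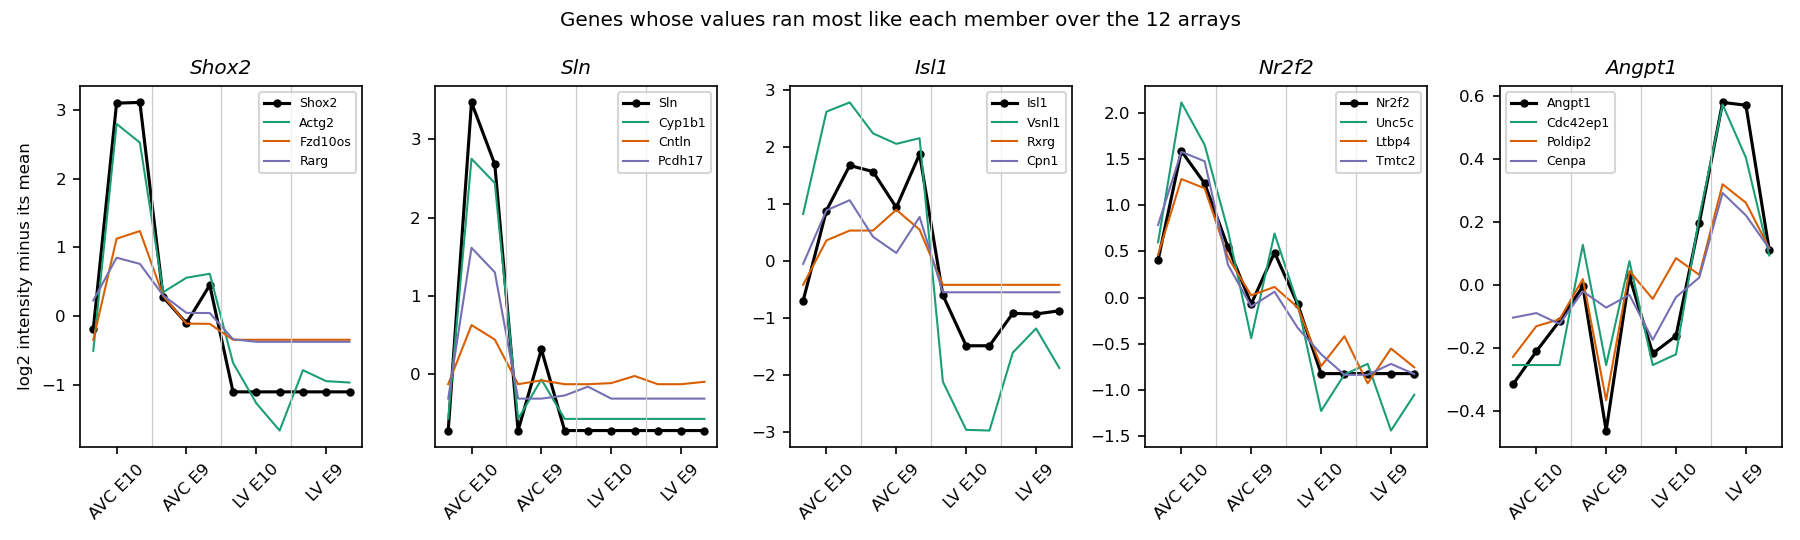
Log2 intensity minus its mean over the 12 arrays, which are in the order AVC E10, AVC E9, LV E10 and LV E9 (3 arrays each), for each gene (black, points) and its 3 most alike genes (colours), with values under 29.6 set to 29.6. Shox2 and Sln and their like genes are high on AVC E10 replicates 2 and 3, and Angpt1 and its like genes are high in LV E9.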

How the data were processed

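The deposited values were intensity, linear and not log transformed, made by the authors from Illumina Mouse WG-6 v2 BeadChips hybridised with biotin-labelled cRNA. Each of the 12 arrays had a mean of 386 over 45281 probes and 34.7% of values were below 0, which background subtraction and a common scale give. The sources used here do not name the program. Array number, 3 a group, limits the precision.

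The deposited values were floored at 1 (36.8% of values lay under it) and taken to log2. A single symbol was listed for 34885 probes, 18 had several and 10378 had none, and probes of these last kinds named no gene. The brightest probe on average stood for each of 19057 genes. The model was fitted with limma 3.58.1 in R 4.3.3 over all probes and all 4 groups, with 5 contrasts, two-sided, adjusted by Benjamini-Hochberg over genes, and called at an adjusted p under 0.05. Fits were tested on simulated data. Alternatives were a floor of 32, quantile normalization, a background filter, the mean of all probes of a gene, array weights, a replicate block, only the groups compared, the methods' t-test and leaving out arrays.

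All 5 genes were named. Of the gene lists, genes that passed between AVC and LV were named, at most the 4 largest, with the AVC and ventricle markers. The 3 genes most alike were named for each member. Members and lists were chosen with earlier results of these data known. Promoter windows were from RefSeq, GRCm38.p6, and the array files name no build.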

Additional observations from a re-analysis of the deposited data

How the results depend on the processing

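Values are for all genes unless members are named. Gene counts were 195 for AVC over LV at E9, 438 at E10, 105 for E10 over E9 in the AVC, 452 in the LV and 6 for the interaction. Quantile normalization gave 273 at E10 and 51 for age in the AVC, and no member was called at E10 (0). A floor of 32 gave 118 at E9 and 135 for age in the LV, with 0 members called at E9 or E10, and it reversed the interaction of Isl1 (-0.63) and of Nr2f2 (0.54). Only genes above background gave 295 at E9, 202 and 968 for age in the AVC and in the LV (1 member, Nr2f2), and 0 for the interaction. Only the groups compared gave 83, 72, 21 and 75, and the methods' t-test 16, 10, 13 and 26, with 0 members called at E9 or E10 in either. Array weights gave 636, 2143, 2050, 3997 and 16, with 4 members at E10, 1 for age in the AVC (Sln) and 2 for age in the LV (Isl1, Nr2f2). The mean of all probes gave 276 at E10, with 0 members at E9 or E10. Leaving out AVC E10 replicate 1 and LV E10 replicate 1 together, chosen after seeing the data, gave 441, 690, 999, 2676 and 118, with 2, 3, 1 and 1 members in the first 4 comparisons. The cause of these changes was not tested.

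Leaving out 1 array at a time gave 59 to 422 genes at E9, 97 to 730 at E10, 25 to 465 for age in the AVC, 54 to 2630 for age in the LV and 10 to 43 for the interaction. Members called were 0 to 1, 0 to 2, 0 to 0, 0 to 1 and 0 to 0. Angpt1 for age in the AVC ranged between -0.22 and 0.020, and reversed to 0.0040 without AVC E9 replicate 1 and 0.020 without AVC E9 replicate 3.

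No label says that a replicate number marks a shared litter, day or chip, so the samples were taken to share only a number. Deviations of same-numbered arrays correlated at -0.365 to 0.524, with 9 of 18 pairs over 0.1 (different numbers, 9 of 36), and 8 of 12 arrays were closest to one of their own number, a hint from the data and not from the design. With the replicate number as a block, 66 genes were called for age in the AVC, 794 for age in the LV and 3 for the interaction, 0 members at E9 (Nr2f2, adjusted p = 0.0717 by limma), and Shox2 stayed called at E10 (adjusted p = 0.0470).

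With 3 arrays a group, LV signals below background bound the fold of Shox2 at both ages, Sln at E10 without AVC E10 replicate 1, Nr2f2 at E9 and Isl1 at E10 rather than measure it.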
